A study of Mus musculus with 32 samples.

Results

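A set of 10 genes of muscle protein breakdown and its control were followed in mouse quadriceps: 6 ubiquitin ligase genes (Fbxo32, Trim63, Fbxo21, Fbxo30, Fbxo31 and Fbxo40), 3 FoxO transcription factor genes (Foxo1, Foxo3 and Foxo4) and Klf15. They were chosen by gene name for their known roles, with earlier results of these data known. All 10 were present among the 53801 gene IDs of every deposited table. RNA sequencing covered 32 mice, wild type (WT) or Col6a2-/-, which lack the α2 chain of collagen VI, an extracellular matrix protein whose loss causes muscle disease. The 8 groups of 4 mice were WT and Col6a2-/- females and males at 5 weeks and at 25 weeks, with 1 library per mouse. Per the labels, the Col6a2-/- mice were homozygous for the tm1(KOMP)Vlcg allele, which is carried in every tissue, and both genotypes came from heterozygous breeders of a C57BL/6N line crossed onto C57BL/6J for 5 generations. RNA came from cryosections of snap-frozen quadriceps and so holds every cell type of the muscle. In such bulk samples, fewer cells of a type and less RNA per cell cannot be told apart.

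Muscle proteins are marked for the proteasome by E3 ubiquitin ligases, and F-box proteins are the parts of cullin-based ligases that pick the substrate. FoxO factors switch on several of these ligases in fasting, disuse and disease, and AKT, acting downstream of insulin and IGF1, keeps FoxO proteins out of the nucleus by phosphorylation. Glucocorticoids act in parallel, partly through KLF15, which also drives the breakdown of branched-chain amino acids.

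Col6a2 itself ran from 19.9 to 51.2 TPM in WT and from 0 to 0.171 TPM in Col6a2-/- mice at 5 weeks. At 25 weeks it ran from 6.60 to 13.6 TPM in WT and from 0.00785 to 0.0344 TPM in Col6a2-/- mice. The exact two-sided permutation p, over 12870 splits, was 0.000155 at each age, so every library matched its genotype label. TPM is the authors' length-scaled abundance, which sums to the same total in each library. Mitochondrial genes took 31.9% to 46.9% of that total and the Rn7s RNAs 20.8% to 30.5%, leaving 28.4% to 44.2% for all other genes. Depth, inferred from the deposited coverage and FPKM, ran from 6.78 to 13.7 gigabases. Libraries 2 and 4 of the 5-week Col6a2-/- females lay at opposite ends of their group on the first principal component, at 58.6 and -9.68. The muscle fibre markers, summed over 8 genes such as Ckm and Acta1, ran from 22577 to 40793 TPM, and none was at 0 in all 32 libraries.

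All 10 genes were above 1 TPM in all 32 libraries, so none passed the expression filter (at least 1 TPM in at least 4 libraries) through a single group. By mean TPM over the 32 mice the order was Trim63 at 50.7 ± 9.58 (SD, n = 32), Fbxo40 at 46.0 ± 9.60, Fbxo32 at 27.1 ± 13.8, Fbxo31 at 13.1 ± 3.12, Klf15 at 8.19 ± 2.78, Foxo4 at 7.56 ± 1.12, Fbxo30 at 4.56 ± 1.07, Foxo3 at 3.71 ± 0.792, Fbxo21 at 2.88 ± 0.640 and Foxo1 at 1.85 ± 0.656. Trim63 and Fbxo40 differed by less than the SD of either gene, as did Klf15 and Foxo4, and Fbxo30 and Foxo3 by less than the SD of Fbxo30. The order within those 3 pairs is thus not separated beyond the spread over mice, which includes the group differences. Differences between the genes within each mouse were not compared. Fbxo32 had the largest spread relative to its mean, from 4.55 to 47.3 TPM.

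On the GRCm38 build the genes lie on 9 chromosomes, and the deposited coordinates equal those of GENCODE M21. Fbxo32 (ENSMUSG00000022358) spans chr15:58175879-58214932 on the minus strand, Trim63 (ENSMUSG00000028834) chr4:134315120-134329629 on the plus strand, and Klf15 (ENSMUSG00000030087) chr6:90462576-90475238 on the plus strand. Fbxo40 (ENSMUSG00000047746) spans chr16:36963460-36990467 on the minus strand, and Fbxo30 (ENSMUSG00000047648) chr10:11281330-11298052 on the plus strand. An annotated antisense transcript overlaps Fbxo32 (Gm15943, at most 0.120 TPM), and a gene on the other strand overlaps Fbxo31 (Gm20388, listed at 0). Foxo1 (ENSMUSG00000044167, chr3:52268336-52353221, plus strand) contains Gm38034 on the same strand, at 0.334 to 1.497 TPM. Since Foxo1 itself was at 1.03 to 4.13 TPM and reads could be split between the pair, its values are uncertain.

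RefSeq promoter windows (GRCm38.p6, 250 bases before to 50 after a RefSeq start) were at hand for 8 of the 10 genes, 9 windows in all since Fbxo40 had 2. RefSeq starts need not equal the GENCODE starts above (those of Foxo1, Foxo3, Fbxo21 and Fbxo30, and 1 of those of Fbxo40, do not), but for Trim63 and Klf15 the printed bases end directly before the GENCODE start. They were searched on both strands for TGTTTAC, a forkhead core that FoxO proteins can bind, GAACANNNTGTTC, the glucocorticoid receptor palindrome, and CACGTG, an E-box bound by clock factors among others. The promoters of Trim63 and Klf15 are shown because, of the 8 genes, only these held a match. The bases before each start follow 5′ to 3′, with matches in capitals.
Trim63, chr4:134314870-134315119, plus strand: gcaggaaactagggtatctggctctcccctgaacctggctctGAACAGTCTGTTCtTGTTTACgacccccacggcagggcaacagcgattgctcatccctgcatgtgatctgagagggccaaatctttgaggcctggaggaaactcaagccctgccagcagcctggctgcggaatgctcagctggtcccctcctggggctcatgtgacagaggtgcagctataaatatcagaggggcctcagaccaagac
Klf15, chr6:90462326-90462575, plus strand: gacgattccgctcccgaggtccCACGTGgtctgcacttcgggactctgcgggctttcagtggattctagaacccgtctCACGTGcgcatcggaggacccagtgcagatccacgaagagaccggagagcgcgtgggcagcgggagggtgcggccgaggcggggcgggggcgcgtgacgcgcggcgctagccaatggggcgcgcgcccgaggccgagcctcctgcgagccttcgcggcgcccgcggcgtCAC
The Trim63 window held the palindrome, beginning 208 bases before the start, and the forkhead core, beginning 194 bases before it, in either case once. Over 32851 windows of the same length, 0.0578% held the palindrome and 3.65% the forkhead core. The Klf15 window held CACGTG 3 times, beginning 228, 172 and 3 bases before the start; the last match runs past the printed end. That motif was in 7.15% of all windows. These are matches of letters, not measured sites.

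**Figure D1:**
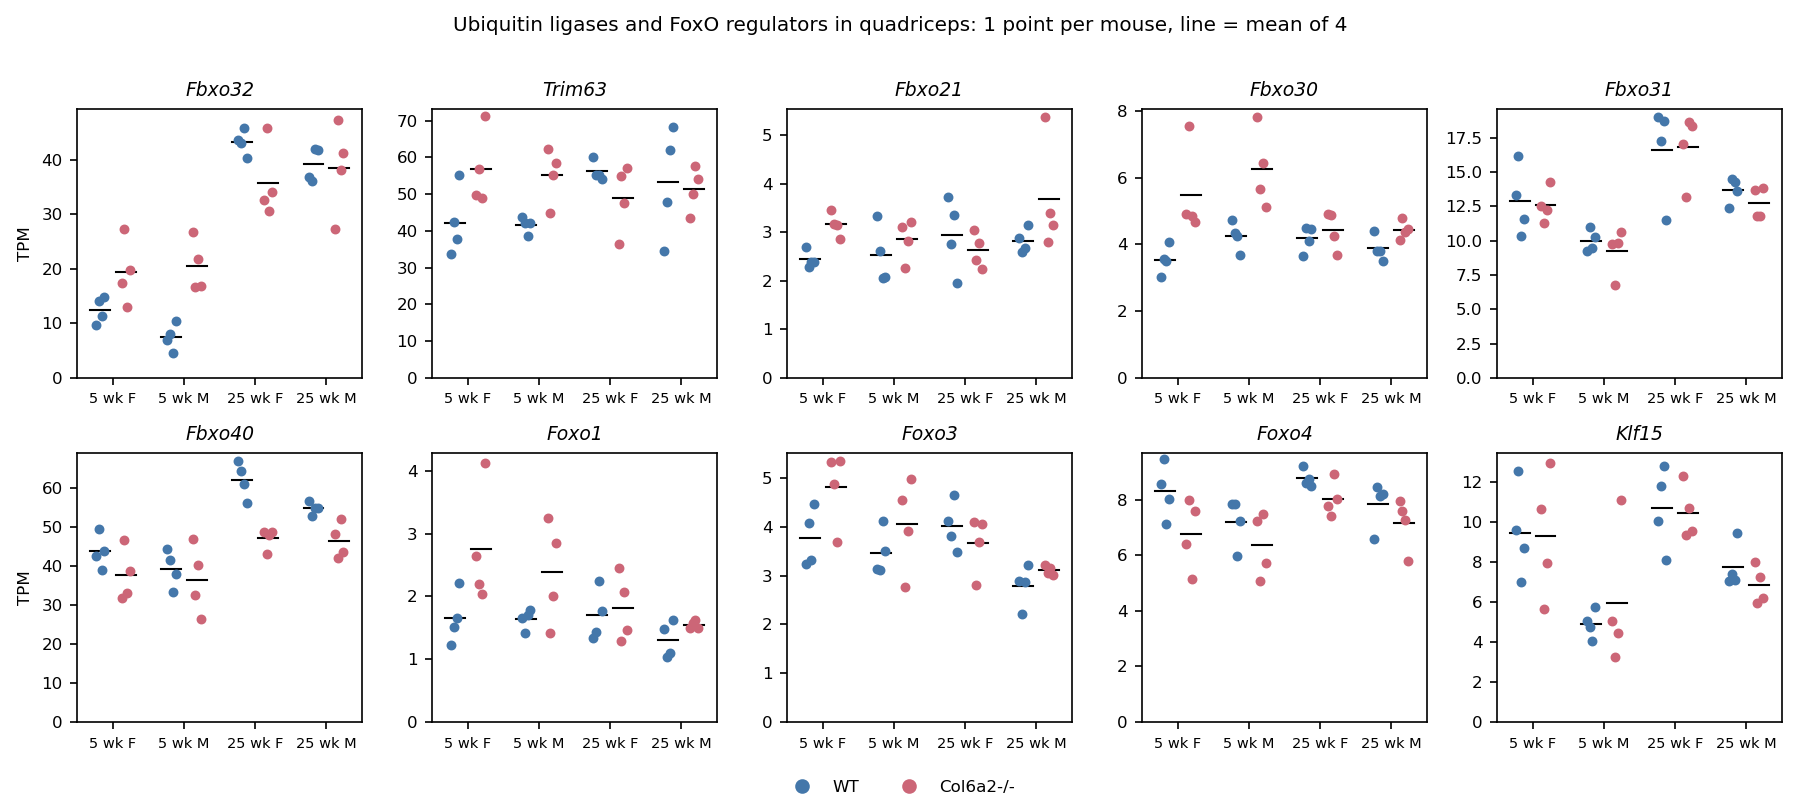
TPM of the 10 genes (vertical axis, from 0) in each of the 32 mice, by age and sex on the horizontal axis, with WT in blue, Col6a2-/- in red and a line at the mean of 4 mice. Fbxo32 is at 4.55 to 14.9 TPM in WT mice at 5 weeks and at 27.3 to 47.3 TPM in all mice at 25 weeks.

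Genotype at 5 weeks was the first comparison: which of the 10 genes differ in young muscle without collagen VI. Fbxo32, which encodes atrogin-1, was 1.997 times as high in Col6a2-/- as in WT mice by mean TPM. Trim63, which encodes MuRF1, a ligase of thick-filament proteins, was 1.33 times as high, Fbxo30 (MUSA1, a ligase held back by BMP signalling) 1.51 times and Foxo1 1.56 times. These 4 of 10 passed limma's test at an adjusted p under 0.05, termed called here, all of them higher, and none was called lower. Of the 12817 genes tested, 25.4% were called, 23.2% higher and 2.14% lower. The median change was 0.21 for the 10 genes and 0.15 for all genes, on the log2(TPM + 1) scale used for every change below, which understates changes of low genes.

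In WT females at 5 weeks, Fbxo32 was at 9.77, 14.1, 11.3 and 14.9 TPM, and in Col6a2-/- females at 17.5, 27.3, 12.9 and 19.8. In WT males it was at 6.86, 8.10, 4.55 and 10.5 TPM, and in Col6a2-/- males at 26.9, 16.7, 21.9 and 16.9. The male groups did not overlap, the female groups overlapped in the 12.9 to 14.9 range, and all 8 Col6a2-/- mice were above the WT mean of their sex. What share of all genes separated the males in this way was not computed, so how unusual the separation is cannot be judged. The mean was 10.0 ± 3.50 TPM in WT and 20.0 ± 5.08 in Col6a2-/- mice (SD, n = 8). The change was 0.97 (SE 0.144), with a limma adjusted p of 1.52e-05. It stayed called in all 32 fits that left out 1 library and under every other setting tried.

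Fbxo30 ran from 3.01 to 4.72 TPM in WT, with a median of 3.87, and from 4.66 to 7.82 in Col6a2-/- mice, with a median of 5.38. Only the top WT male (4.72) and the bottom Col6a2-/- female (4.66) crossed. The change was 0.48 (SE 0.0857, limma adjusted p 0.000166), and all 8 Col6a2-/- mice were above the WT mean of their sex. It too was called under every setting. Library 2 of the Col6a2-/- females, at 7.55 TPM, stood apart from the other 3 at 4.66 to 4.90, and without it the change was 0.41.

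Trim63 ran from 33.6 to 55.3 TPM in WT, with a median of 42.2, and from 45.0 to 71.4 in Col6a2-/- mice, with a median of 56.1. The groups overlapped, and all 8 Col6a2-/- mice were above the WT mean of their sex. The change was 0.41 (SE 0.122, limma adjusted p 0.0156). Foxo1, one of the FoxO factors that induce ligase genes, ran from 1.23 to 2.21 TPM in WT and from 1.42 to 4.13 in Col6a2-/- mice, with 7 of 8 above the WT mean of their sex. Its change was 0.40 (SE 0.116, limma adjusted p 0.0121). Both calls depended on the scaling. Trim63 lost its call under 5 of 13 other settings and Foxo1 under 3 of 12. With median-of-ratios size factors, which moved the median change of all genes from 0.15 to 0.00062, Trim63 was at 0.22 (adjusted p 0.271) and Foxo1 at 0.28 (adjusted p 0.128). With array weights Trim63 was not called either (0.29, limma adjusted p 0.0790). Trim63 also lost its call without libraries 2 and 4 of the 5-week Col6a2-/- females (0.31, adjusted p 0.0798), a setting chosen after seeing the data.

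The other 6 genes were not called. Foxo3, the FoxO factor of autophagy control, was at 3.62 ± 0.527 TPM in WT and 4.43 ± 0.904 in Col6a2-/- mice (SD, n = 8; adjusted p 0.0755). Fbxo21 had a change of 0.20, Fbxo31 of -0.068 and Klf15 of 0.039. Foxo4 was at 7.75 ± 1.04 TPM in WT and 6.58 ± 1.15 in Col6a2-/- mice, and Fbxo40, a ligase of IRS1, at 41.6 ± 4.81 and 37.0 ± 7.36. Their changes were -0.21 (adjusted p 0.0687) and -0.18 (adjusted p 0.162). Leaving out 1 library brought in a call of Foxo3 (without Col6a2-/- female 3, Col6a2-/- male 2 or WT female 4 of that age, 0.26 to 0.29) or of Foxo4 (without Col6a2-/- female 2 or 4, Col6a2-/- male 3 or WT male 3, -0.24 to -0.25). Foxo4 and Fbxo40 were each called lower under the same 6 of 13 other settings. Among these were FPKM, array weights, median-of-ratios size factors, quantile normalization and rescaling without the 100 most abundant genes. The other left out libraries 2 and 4 of the 5-week Col6a2-/- females. With median-of-ratios size factors the changes were, for Foxo4, -0.38 (adjusted p 0.000702) and, for Fbxo40, -0.36 (adjusted p 0.000142), so that 2 genes were then called higher and 2 lower. That scaling called 1623 of all genes higher and 1479 lower, against 2979 and 274 on deposited TPM. Relative to the median of all genes on deposited TPM, Fbxo32 was at 0.82, Fbxo30 at 0.34, Trim63 at 0.26, Foxo1 at 0.26, Fbxo40 at -0.32 and Foxo4 at -0.36.

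Markers of several other cell types moved with genotype at this age, when 23.2% of all genes were called higher and 2.14% lower. All 8 macrophage markers (Cd68 and C1qa among them) were called higher, and their summed level ran from 61.8 to 104 TPM in WT and from 100 to 345 in Col6a2-/- mice. Of 6 tested markers of satellite cells and regenerating fibres, such as Myog and Myh3, 5 were called higher, and the summed level ran from 107 to 149 TPM in WT and from 99.6 to 221 in Col6a2-/- mice. Of 7 fibroblast markers, 4 were called higher (summed 923 to 1646 TPM in WT, 787 to 2266 in Col6a2-/-), and of 8 muscle fibre markers 4 were called lower (summed 30871 to 40793 TPM in WT, 24497 to 38676 in Col6a2-/-). No marker of these lists was at 0 in all 32 libraries. None of the 6 adipocyte, 5 erythrocyte and 4 tested Schwann cell markers was called, and 2 of 5 endothelial markers were called higher. The part of all these cells in the results above was not tested.

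At 25 weeks Fbxo40 was the 1 gene of the 10 called between genotypes, lower in Col6a2-/- mice by -0.31 (SE 0.0937, limma adjusted p 0.0497), against 4.7% of all genes called and 0.234% called lower. WT females were at 67.0, 64.3, 61.1 and 56.2 TPM and WT males at 56.7, 52.7, 54.8 and 55.0. Col6a2-/- females were at 48.6, 43.1, 48.0 and 48.6 TPM and Col6a2-/- males at 48.3, 42.2, 52.0 and 43.7. Every Col6a2-/- mouse was below every WT mouse, a lower separation that 0.0312% of all genes showed. The call lay close to the threshold. It held under 10 of 13 other settings, with adjusted p down to 0.00017 and a change down to -0.43, both with median-of-ratios size factors. It was lost in 27 of the 32 fits that left out 1 library, with adjusted p up to 0.0865. Among those 32 fits it held only without Col6a2-/- 5-week female 2 or 4, Col6a2-/- 5-week male 1 or 4, or WT 5-week male 3 (adjusted p 0.0247 to 0.0486), and the 3 other settings that lost it were the replicate block (adjusted p 0.0513), no filter (0.094) and a pseudocount of 5 (0.0649). The change itself ran from -0.34 to -0.29 over the 32 fits.

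Fbxo32 at 25 weeks was at 41.2 ± 3.33 TPM in WT and 37.2 ± 7.22 in Col6a2-/- mice (SD, n = 8). Its change was -0.16, with a 95% interval from -0.46 to 0.13 and a limma adjusted p of 0.572. Trim63 had a change of -0.11 (95% interval -0.36 to 0.14), Fbxo30 of 0.11 (-0.062 to 0.29) and Foxo1 of 0.10 (-0.13 to 0.34). All 8 macrophage markers were still called higher, summed at 42.0 to 114 TPM in WT and 110 to 206 in Col6a2-/- mice. So were 5 of 7 fibroblast markers and 1 of 6 tested markers of satellite cells and regenerating fibres, against 4.47% of all genes. No muscle fibre, adipocyte, endothelial, erythrocyte or Schwann cell marker was called.

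**Figure D2:**
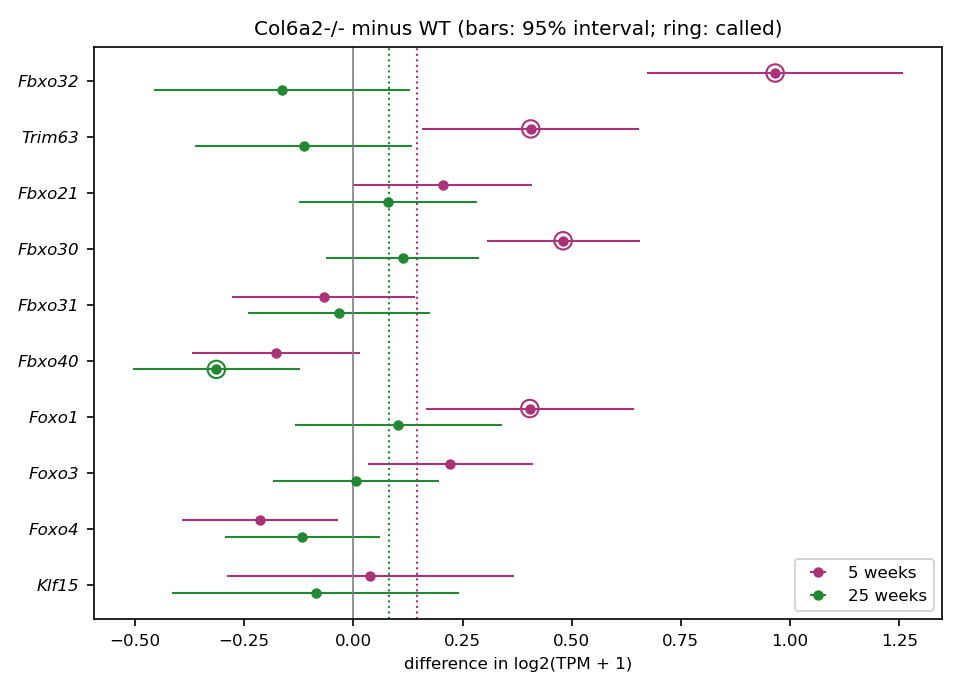
Col6a2-/- minus WT for the 10 genes at 5 weeks (magenta) and 25 weeks (green), as differences in log2(TPM + 1) on the horizontal axis with 95% intervals; rings mark called changes and dotted lines the median of all genes. Fbxo32 is at 0.97 at 5 weeks and at -0.16 at 25 weeks.

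Whether the genotype difference itself changed with age was tested by the genotype by age term, the difference at 25 weeks minus that at 5 weeks. Fbxo32 was the 1 gene of 10 called, at -1.13 (SE 0.203, limma adjusted p 0.00291), against 0.492% of all genes called and 0.421% called lower. The term was called in every alternative fit that gave it, with adjusted p from 0.000732 to 0.00866. Trim63 (-0.52, adjusted p 0.302) and Fbxo30 (-0.37, adjusted p 0.301) had unadjusted p under 0.05 and were not called. For Foxo1 the term was -0.30 (adjusted p 0.791), so its call at 5 weeks and the lack of one at 25 weeks are not shown to differ. For Fbxo40 the term was -0.14 (SE 0.133, limma adjusted p 0.955). Its call at 25 weeks and the lack of one at 5 weeks are likewise not shown to differ. In the same term, 4 of 6 markers of satellite cells and regenerating fibres were called lower.

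Genotype by sex, averaged over the ages, called none of the 10 genes in limma and 0.0156% of all genes. Fbxo32 alone had an unadjusted p under 0.05, with 0.52 (SE 0.203, p 0.0163, adjusted p 0.9998). The Col6a2-/- to WT ratio of its mean TPM at 5 weeks was 2.75 in males and 1.55 in females.

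Age was compared within each genotype; these comparisons share the 5-week and 25-week mice with the genotype comparisons above, so their values are given side by side and not as separate evidence. In WT mice, Fbxo32, Fbxo40, Fbxo31 and Trim63 rose from 5 to 25 weeks and none of the 10 genes fell. Fbxo21 was also called higher with median-of-ratios size factors (0.23, adjusted p 0.0470) and with quantile normalization (0.26, adjusted p 0.0312). Of all genes, 19.8% were called with age in WT, 4.47% higher and 15.3% lower. The median change was 0.26 for the 10 genes and -0.076 for all genes. In Col6a2-/- mice 3 of the 10 rose and 3 fell, against 34.2% of all genes called, 5.41% higher and 28.8% lower. Inferred depth ran from 7.29 to 13.7 gigabases at 5 weeks and from 6.78 to 10.4 at 25 weeks, and its part in the age results was not tested.

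Fbxo32 in WT mice went from 4.55 to 14.9 TPM at 5 weeks to 36.1 to 45.9 TPM at 25 weeks. The 25-week values were 43.6, 43.2, 45.9 and 40.3 in females and 36.9, 36.1, 42.0 and 41.8 in males. The ages did not overlap, as for 0.694% of all genes in this direction, and the mean ratio was 4.12. The change was 2.01 (SE 0.144, limma adjusted p 5.95e-11), the fifth smallest p of all genes tested. In Col6a2-/- mice the 25-week values were 32.7, 45.9, 30.7 and 34.1 TPM in females and 27.3, 47.3, 38.2 and 41.3 in males. The highest 5-week Col6a2-/- mouse (27.33) lay just under the lowest at 25 weeks (27.34), a separation that 0.804% of all genes showed. Their change was 0.88 (SE 0.144, limma adjusted p 2.89e-05), a mean ratio of 1.86.

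Over the 8 groups, mean Fbxo32 was lowest in WT males at 5 weeks (7.49 ± 2.46 TPM, SD, n = 4), followed by WT females at 5 weeks (12.5 ± 2.39) and the 5-week Col6a2-/- females (19.4 ± 6.01) and males (20.6 ± 4.81). The 25-week means were 35.8 ± 6.86 in Col6a2-/- females, 38.5 ± 8.35 in Col6a2-/- males, 39.2 ± 3.14 in WT males and 43.2 ± 2.29 in WT females. The 2 Col6a2-/- groups at 5 weeks differed by less than their SD, as did the neighbouring groups at 25 weeks except the WT sexes.

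Fbxo40 rose in both genotypes. WT mice were at 33.4 to 49.4 TPM at 5 weeks and 52.7 to 67.0 at 25 weeks, with no overlap, a change of 0.49 (SE 0.0937, limma adjusted p 0.000436). Col6a2-/- mice were at 26.5 to 46.8 and 42.2 to 52.0 TPM, a change of 0.35 (limma adjusted p 0.00487). Fbxo31, a ligase subunit first known from cyclin D1 turnover, was at 11.4 ± 2.32 and 15.2 ± 2.84 TPM in WT (change 0.38, adjusted p 0.00889). In Col6a2-/- mice it was at 10.9 ± 2.26 and 14.8 ± 2.81 TPM (change 0.41, adjusted p 0.00258; SD, n = 8).

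Trim63 in WT mice was at 42.0 ± 6.33 TPM at 5 weeks and 54.7 ± 10.1 at 25 weeks, with overlapping ranges (SD, n = 8). Its change of 0.36 (limma adjusted p 0.0337) lost its call in 6 fits that each left out 1 library: WT 25-week female 1 (0.35), WT 25-week males 3 (0.32) and 4 (0.30), WT 5-week females 1 (0.31) and 3 (0.34), and WT 5-week male 3 (0.35), with adjusted p from 0.0598 to 0.0802. It was also lost with no filter on low values (adjusted p 0.0706). In Col6a2-/- mice the change was -0.16 (adjusted p 0.333). The genotype by age term of Trim63 was not called (-0.52, limma adjusted p 0.302), so the genotypes are not shown to differ in this change.

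Fbxo30, Foxo1 and Foxo3 fell with age in Col6a2-/- mice, by -0.32 (adjusted p 0.00468), -0.39 (adjusted p 0.0109) and -0.30 (adjusted p 0.0145). In WT mice their changes were 0.045, -0.088 and -0.080, none called. The genotype by age term was not called for any of these 3 genes (limma adjusted p 0.301, 0.791 and 0.842). Their changes with age are thus not shown to differ between genotypes. The median change of all genes in Col6a2-/- mice was -0.14. Among the other settings, the fall of Fbxo30 lost its call under 2 of 13, that of Foxo1 under 4 of 12 and that of Foxo3 under 6 of 12. Losses included Foxo1 with array weights (limma adjusted p 0.0546) and Foxo3 with only the groups compared (limma adjusted p 0.0505). With median-of-ratios size factors none of the 3 falls was called, at -0.17, -0.27 and -0.16, and Foxo4 was called higher at 0.34 (0.19 and not called on deposited TPM, but called at 0.23 without Col6a2-/- 25-week male 4). That scaling called 2104 of all genes higher and 2319 lower with age in Col6a2-/- mice, against 694 and 3695, and 1710 and 1953 in WT, against 573 and 1963. In Col6a2-/- mice 7 of 8 macrophage markers and 5 of 6 markers of satellite cells and regenerating fibres were also called lower with age. Klf15 was not called in either genotype (0.37 in WT, 0.24 in Col6a2-/-). In WT it was called with array weights (0.40, adjusted p 0.0106) and with only the groups compared (0.37, adjusted p 0.0220). Without Col6a2-/- 5-week male 4 it was called in WT (0.37, adjusted p 0.0412) and in Col6a2-/- mice (0.40, adjusted p 0.0214).

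**Figure D3:**
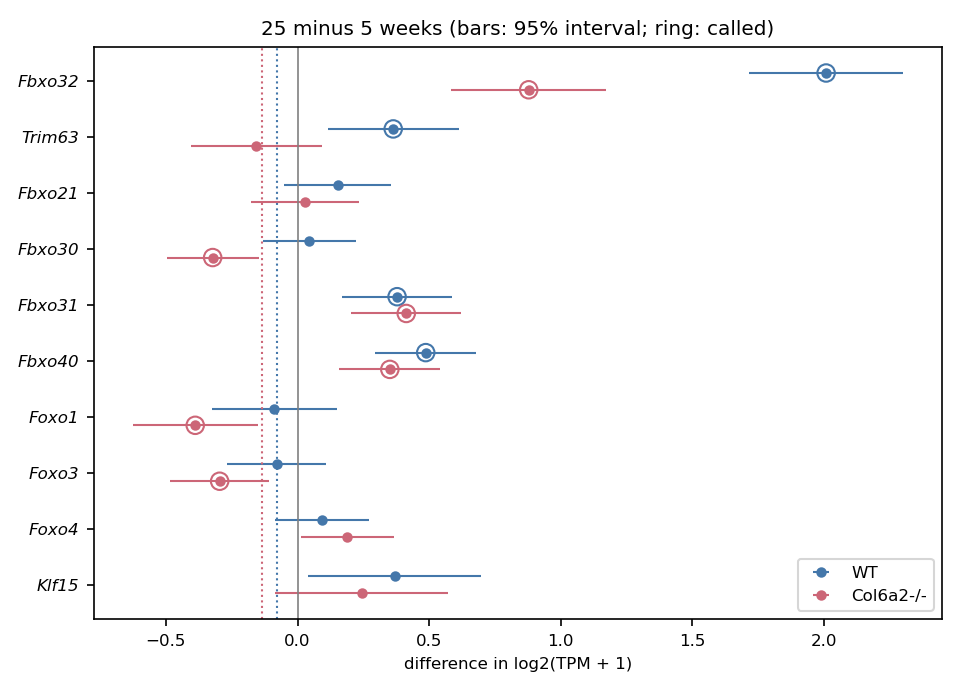
Change from 5 to 25 weeks in log2(TPM + 1) for the 10 genes in WT (blue) and Col6a2-/- (red) mice, with 95% intervals, rings for called changes and dotted lines at the median of all genes. Fbxo32 stands farthest to the right in both genotypes, at 2.01 and 0.88.

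Sex separated Klf15 and Fbxo31, both lower in males. These were 2 of the 10 genes, against 3.05% of all genes called, 1.18% lower. Klf15 ran from 5.65 to 13.0 TPM in females, with a median of 9.85, and from 3.23 to 11.1 in males, with a median of 6.09. The means were 10.0 ± 2.18 and 6.38 ± 2.05 TPM (SD, n = 16), and the ranges overlapped. The change, male minus female, was -0.60 (SE 0.114, limma adjusted p 0.00154). Male 4 of the 5-week Col6a2-/- group, at 11.1 TPM, was well above the other males of its group at 3.23 to 5.07. Fbxo31 was at 14.7 ± 3.10 TPM in females and 11.4 ± 2.20 in males (change -0.33, SE 0.0723, limma adjusted p 0.00586). Foxo3 had a change of -0.22 with an adjusted p of 0.0611; it was called lower under 6 of the 11 other settings that tested it (adjusted p down to 0.00824) and without Col6a2-/- 25-week female 2, Col6a2-/- 5-week females 2 or 3, Col6a2-/- 5-week male 4, WT 25-week male 4 or WT 5-week male 3 (-0.22 to -0.25). Age by sex called none of the 10 genes in limma, none had an unadjusted p under 0.05, and 3.43% of all genes were called.

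Other genes of the same pathways were counted from lists written with earlier results of these data known. Their counts stand beside the shares of all genes called: 23.2% higher and 2.14% lower at 5 weeks, and 4.47% higher and 15.3% lower with age in WT. Among 25 other muscle E3 ligases, cullin partners and deubiquitinases, 2 were called higher and none lower at 5 weeks, and the list's median change was 0.14, against 0.15 for all genes. They were Mdm2, the p53 ligase (0.56, limma adjusted p 0.00699), and Trim72, a membrane repair protein (0.43, limma adjusted p 0.00957, but 0.0526 with median-of-ratios size factors). With age in WT, 2 were called higher and 1 lower, led by Asb2, a cullin adaptor that turns over filamins (1.13), and Trim54, a relative of Trim63 (0.42).

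Of 23 FoxO target and atrophy genes, 8 were called higher and 1 lower at 5 weeks, against 23.2% and 2.14% of all genes, with a median of 0.25 against 0.15. Cdkn1a, the cell cycle inhibitor p21, was at 2.70 ± 1.24 TPM in WT and 13.7 ± 5.02 in Col6a2-/- mice (SD, n = 8), a change of 1.98. Gadd45a, a stress gene also raised by denervation, was at 6.94 ± 1.10 and 24.99 ± 9.03 TPM (change 1.65). Mstn, which encodes myostatin, was lower, at 15.8 ± 3.25 and 9.60 ± 2.95 TPM (change -0.69). At 25 weeks Cdkn1a was at 2.48 ± 1.68 TPM in WT and 3.52 ± 1.55 in Col6a2-/- mice, and Gadd45a at 5.23 ± 1.71 and 7.24 ± 1.96. Cdkn1a (-1.53, adjusted p 0.00801) and Gadd45a (-1.24, adjusted p 0.0112) were, like Fbxo32, called in genotype by age. With age in WT, 4 of the 23 were called higher and 1 lower, against 4.47% and 15.3% of all genes, among them Gabarapl1 of the autophagosome (0.75) and the peroxisomal enzyme gene Cat (0.47).

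In the insulin, IGF1 and AKT list, 5 of 25 were called higher and 2 lower at 5 weeks, against 23.2% and 2.14% of all genes, with a median of 0.11 against 0.15. Akt1 led at 0.43 (limma adjusted p 0.0019). With age in WT, 1 was called higher and 4 lower, against 4.47% and 15.3% of all genes: Igf1, the growth factor, fell by 1.41, Irs1, its receptor's adaptor, by 0.75, and Foxo6 by 0.58. Of 15 glucocorticoid receptor genes and targets, 1 was called higher and 1 lower at 5 weeks. The higher one was Mt2, a metallothionein gene (2.23), which was also called at 25 weeks (1.39), as were 4.47% of all genes in that direction. Of 14 ligase substrates, 2 were called higher and 3 lower at 5 weeks, led by Vim, the intermediate filament of non-muscle cells and regenerating fibres, at 0.72 (0.57 at 25 weeks, with an adjusted p of 0.0503 without Col6a2-/- 25-week male 1). Myod1 was the other one called higher (0.58), and Myh4 was among those called lower (-0.43). In the 32 fits that left out 1 library, Myod1 lost its call in 2 and Myh4 in 19.

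Klf15 is linked to amino acid breakdown, and of 13 tested genes of that list 5 were called lower in males and none higher, against 1.18% of all genes called lower. Glul, glutamine synthetase, an enzyme of synthesis and not of breakdown, had a change of -0.61. It was not called with no filter (limma adjusted p 0.0545). Bckdhb and Dbt, subunits of the branched-chain keto acid dehydrogenase, had changes of -0.41 and -0.31. At 5 weeks 2 of the 13 were called lower in Col6a2-/- mice, against 2.14% of all genes, with Gpt2, an alanine transaminase, at -0.60. With age in WT, 4 were called higher and none lower, against 4.47% and 15.3% of all genes, with Bckdha at 0.58.

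**Figure D4:**
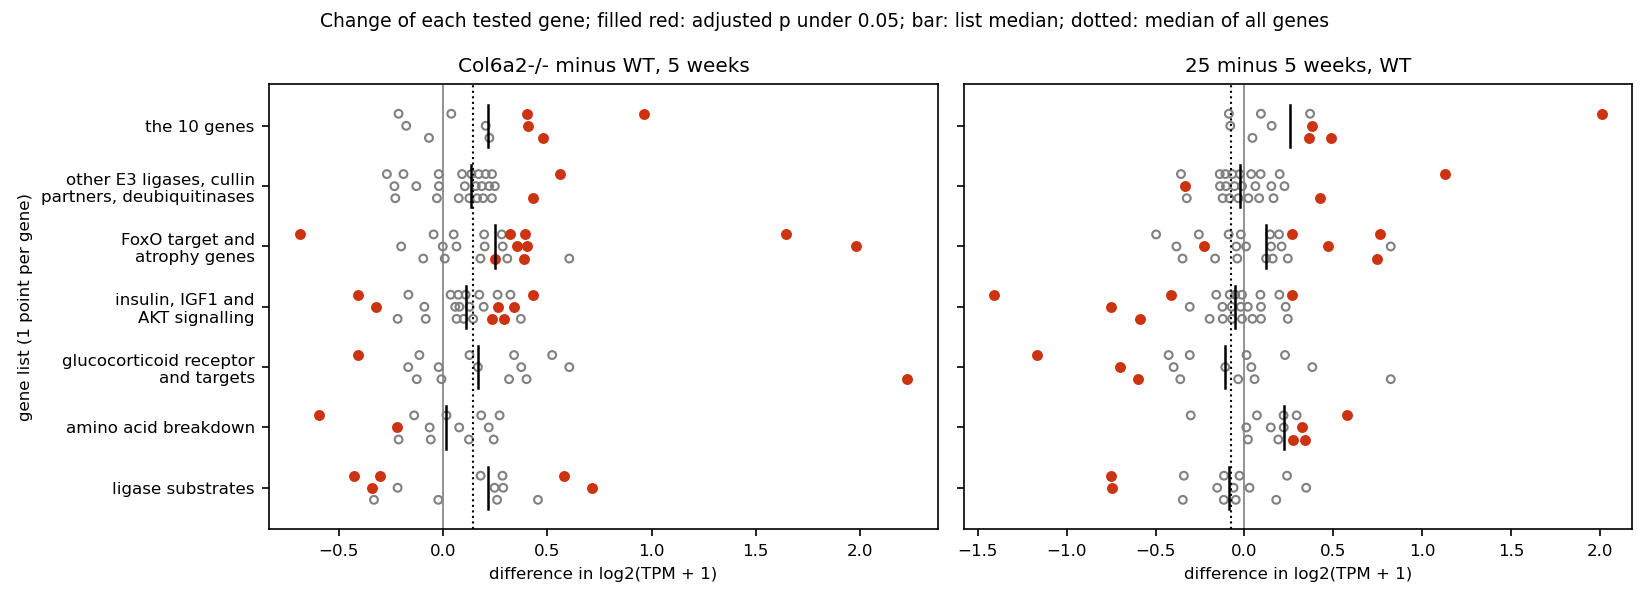
Change of each tested gene of the 10 genes and of the 6 pathway lists, in log2(TPM + 1), for genotype at 5 weeks (left) and age in WT (right); red points were called, grey circles were not, bars are list medians and dotted lines the median of all genes. Mt2 (2.23) and Cdkn1a (1.98) are farthest right on the left side, and Fbxo32 (2.01) on the right side.

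Which genes varied most like each member was described by Pearson's r of log2(TPM + 1) over the 32 libraries, which share the group differences, depth and composition. Nearest to Fbxo32 were Maob (0.859), Gabarapl1 (0.852) and Klhl38 (0.851), with r of 0.889, 0.940 and 0.906 over the 8 group means. Klhl38 is also the neighbour of Fbxo32 on chromosome 15, 99641 bases away with no annotated gene between them. Nearest to Klf15 were Glul (0.896), its pseudogene Glns-ps1 (0.837), which may share reads with it, and Plin4 (0.788). Bckdhb was among the 3 nearest to Fbxo31 (0.837). Fbxo40 was nearest to Dym (0.907) and Hipk3 (0.898), and Fbxo30 to Abhd17c (0.900) and Rb1 (0.899). Trim63 had no close match, with Wbp1l at 0.576 the highest. Among the 10 genes themselves the closest pairs were Foxo1 and Foxo3 (0.809), Fbxo31 and Klf15 (0.8003) and Fbxo40 and Foxo4 (0.742). After the group means were removed the same pairs had r of 0.730, 0.647 and 0.679, while Fbxo32 and Fbxo31 went from 0.539 to 0.014.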

How the data were processed

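Quadriceps RNA of 32 mice was profiled by paired-end sequencing of TruSeq libraries, per the labels' protocols. The submitters' processing notes name FastQC, MultiQC, Trimmomatic, HISAT2, SAMtools and StringTie and the builds GRCm38 and mm10; versions and use of strand are not given in the sources used here. The authors deposited, for each library, a file with coverage (signal), FPKM and TPM per gene, per the file headers. FPKM served as an alternative unit, and coverage over FPKM gave a relative depth, which exceeds what the MiSeq named in the labels usually yields. These tables hold no counts.

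TPM was summed per gene ID and analysed as log2(TPM + 1), with a pseudocount of 1. A gene was kept if 4 or more libraries had 1 TPM or more. All 32 libraries entered a group-means model in limma 3.58.1 (lmFit, eBayes with trend, R 4.3.3), and 8 two-sided contrasts with equal weight on sexes and ages were tested, with Benjamini-Hochberg adjustment over all genes; an adjusted p under 0.05 was called. The script was tested on simulated data. The software was Python 3.11.15 with pandas 2.3.3, numpy 2.4.6 and matplotlib 3.10.9, and the R package data.table (release 1.17.8). Samples were grouped by genotype, age and sex from their labels. The labels name separate mice but no litters. Alternatives covered pseudocount, filter, scaling, unit, model, replicate block, the groups fitted and single libraries left out.

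The 10 genes and all lists were chosen with earlier results of these data known. Up to 3 called genes per list and comparison, those with the largest change, could be named, and the 3 genes of highest Pearson r per member. A StringTie TPM of a gene that overlaps another depends on how reads were assigned. Motifs were matched as exact letters.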

Additional observations from a re-analysis of the deposited data

Results flagged for a closer look

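Of 80 checks (10 genes in 8 groups of 4 mice), 3 found a mouse far from the other 3 of its group by Dixon's ratio; chance gives about 1 in 20. Fbxo30 was at 7.55 TPM in 5-week Col6a2-/- female 2, and the next value was 4.90. Fbxo40 was at 43.1 TPM in 25-week Col6a2-/- female 2, below the next value of 48.0. Klf15 was at 9.47 TPM in 25-week WT male 4, above the next value of 7.43.

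The genotype difference of Fbxo32 was not the same at both ages by limma's genotype by age term, at -1.13 with an adjusted p of 0.00291. It was 0.97 at 5 weeks, with 8 of 8 Col6a2-/- mice above the WT mean of their sex, and -0.16 at 25 weeks, with 3 of 8 above. How many of all genes had such counts was not computed. The median change of all genes was 0.15 at 5 weeks and 0.082 at 25 weeks.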

How the results depend on the processing

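No change of the 10 genes that was called reversed under any setting. Fbxo32 and Fbxo30 at 5 weeks, Fbxo32 in genotype by age and Klf15 by sex kept their calls in all. Of 976 values of the 10 genes under settings other than single libraries left out, 24 lost a call and 28 gained one. Under the replicate block, Fbxo40 at 25 weeks lost its call (adjusted p 0.0513), leaving 0 of 10 genes, and Foxo3 was called by sex (adjusted p 0.0454). What same-numbered mice share is not given by the labels. Residuals of same-numbered libraries correlated at -0.340 to 0.349 (median 0.0322, against -0.0132 for other numbers). Of 112 such pairs 35 were over 0.1, and 14 of 32 libraries correlated best with their own number. Whether the numbers pair the mice was not tested. At 25 weeks 0 of 10 genes were also called with no filter and with a pseudocount of 5.

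Counts of all genes called moved by over 1.5 times as follows, and the cause was not tested unless fewer genes or libraries entered. For genotype at 5 weeks they were 1553 with a 5 TPM filter and 1907 with only the groups compared. For genotype at 25 weeks they were 1967 with array weights, 344 with the 5 TPM filter, 1282 with median-of-ratios, 343 with no filter, 1177 with only the groups compared, 317 with pseudocount 5, 1186 without the 100 most abundant genes and 1249 without libraries 2 and 4 of the 5-week Col6a2-/- females. For genotype by age they were 241 with array weights, 32 with the 5 TPM filter, 132 with median-of-ratios, 115 with no filter, 163 with quantile normalization and 150 without those 2 libraries. For genotype by sex they were 0, 5 and 1 with array weights, no filter and without those 2 libraries. For age in WT they were 4166 with array weights and 1441 with the 5 TPM filter, and for age in Col6a2-/- 2263 with that filter. For sex they were 925 with array weights, 258 with the 5 TPM filter, 822 with median-of-ratios, 828 with quantile normalization and 755 without the 100 most abundant genes. For age by sex they were 3803 with array weights, 222 with no filter, 285 with pseudocount 5, 242 with quantile normalization, 216 without mitochondrial and Rn7s genes, 282 without the 100 most abundant genes and 2073 without those 2 libraries.

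With single libraries left out, counts ran from 271 (without 25-week Col6a2-/- male 1) to 996 (without 5-week Col6a2-/- female 2) for genotype at 25 weeks, with 0 to 1 of the 10 genes. They ran from 49 to 229 for genotype by age, highest without 5-week Col6a2-/- female 4. They ran from 326 to 718 for sex and from 180 to 3873 for age by sex, with 0 to 1 of the 10 genes, in both cases highest without 5-week Col6a2-/- female 2; the gene was Fbxo30 (-0.30, adjusted p 0.0324). Foxo1, at 1.03 to 4.13 TPM, was the lowest of the 10, and how depth limits each gene was not compared.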
